A study of Homo sapiens with 9 samples.

Results

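The constitutive proteasome genes of HCT116 cells were examined, from the subunits of its core and regulatory particles to its activators, its inhibitor and its maturation factor. They were taken as all genes that the deposited table annotates with the KEGG proteasome pathway, leaving out the immunosubunits PSMB8 and PSMB9 and the cytokine gene IFNG. The KEGG term stood at 42 rows, none of them IFNG, and 40 genes of the 33861 in the table remained. By their known roles, 7 encode the alpha ring and 8 the beta ring of the core particle, 6 the ATPases and 4 the other subunits of the base, 9 the lid, 4 activators, 1 an inhibitor (PSMF1) and 1 a maturation factor (POMP). PSMB10 is also an immunosubunit, so the 40 genes are not all constitutive.

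The proteasome degrades proteins that carry ubiquitin chains. Its core particle is a barrel of alpha and beta rings with the proteolytic sites inside, and the regulatory particle, made of a base and a lid, recognises, deubiquitinates and unfolds the substrate. The genes of the complex are transcribed in a coordinated way, in large part through the transcription factor NFE2L1, which binds antioxidant response elements in their promoters.

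HCT116 is an established human colorectal cancer line. RNA was sequenced from 9 libraries in 3 groups of 3. The groups were control cells (labelled NC), cells given 100 ng/mL activin A for 5 days (Activin), and cells given the same activin treatment and then 20 ng/mL hepatocyte growth factor (HGF) for another 5 days (Activin+HGF). No library received HGF alone, and the culture time of the controls is not given in the sources used here. HGF and the additional days therefore cannot be told apart, nor can activin and any difference in culture time from the controls.

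Libraries held 57453977 to 77016167 counts. Markers were judged by FPKM (the authors' fragment counts scaled by gene length and library), taking the highest of the 3 libraries in a group. By that value, 7, 7 and 6 of 10 colorectal epithelial markers reached 1 in control, activin and activin + HGF cells. EPCAM and CDH1 were among them in each group, whereas KRT20 reached that level in the first 2 groups only and VIL1, CDX1 and CDH17 in none. Leukocyte and endothelial markers stayed below 1, and of the fibroblast markers COL1A1 alone reached it. The library activin 2 correlated with the other 2 of its group at r = 0.921 and 0.924 (Pearson, across 14757 genes), against 0.957 between those, and activin + HGF 1 at 0.923 and 0.930 against 0.961. Nothing in the labels says whether the 3 libraries of a group came from separate cultures, so p-values measure the spread between these libraries.

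Stretches of sequence upstream of 4 of the genes are shown because they hold the core of an antioxidant response element, the element of the NFE2L1 pathway described further on. Searched on both strands of the 250 bases before the RefSeq transcription starts (build GRCh38.p14), the letters TGACNNNGC occurred for 10 of the 35 genes that had a promoter entry, or 28.6%, and for 13.2% of 27305 genes of the same table. PSMA7, PSMB1, PSMB6, PSMB7 and PSMD4 had no entry. Capitals mark the core, each window is written 5′ to 3′ on the strand that reads TGACNNNGC, which is the strand of the gene, and none of the 4 windows overlaps an exon of GENCODE 29. The core of PSMB3 began 104 bases before the start, that of PSMD3 37, PSME1 86 and PSMD12 165 bases before it.
PSMB3, chr17:38752622-38752660, plus strand: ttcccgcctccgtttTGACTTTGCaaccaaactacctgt
PSMD3, chr17:39980755-39980793, plus strand: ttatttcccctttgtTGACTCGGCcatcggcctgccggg
PSME1, chr14:24136093-24136131, plus strand: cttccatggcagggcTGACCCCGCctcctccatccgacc
PSMD12, chr17:67366719-67366757, minus strand: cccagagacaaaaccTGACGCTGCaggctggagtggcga
The others with the core included PSMA4, PSMC5, PSME2, PSME4 and SEM1. For SEM1, PSMA4 and PSMC5, which have several listed starts, the core lay before a later start and not before the most upstream of them. The windows around the core in PSMA4, PSMC5, PSME2 and PSME4 overlap exons of GENCODE 29. Among the 10, 5 were called lower with activin in the test described next (SEM1, PSMB3, PSMA4, PSMD3 and PSMC5) and 5 were not. Of all the proteasome genes examined here, with or without the core, 55.0% were called lower. A link between the core and the fall was not tested. In the same windows, CCAAT occurred for 17 of the 35 genes (48.6%, against 37.0% of all genes), the GC box GGGCGG for 22 (62.9%, against 46.2%), and the ETS motif CCGGAAGT for 6 (17.1%, against 4.13%). The E2F motif TTTCGCGC occurred for 0 of the 35 genes and for 0.542% of all genes. These are matches of letters and not measured binding sites, and matches of different motifs may overlap.

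All 40 genes passed the filter on low counts. Levels per length are given in control cells as the mean of the authors' FPKM. PSMB3, a structural beta subunit, was highest at 121 ± 14.3 (SD, n = 3), followed by PSMA7 of the alpha ring at 102 ± 2.20, and by the catalytic subunits PSMB7 at 95.8 ± 0.648 and PSMB5 at 91.7 ± 16.0. PSMB7 and PSMB5 did not differ beyond their spread. The lowest were the ATPase PSMC6 at 6.31 ± 0.851 and PSMB10 at 2.60 ± 0.985 FPKM, a 46.4-fold range. The order depends on the length the authors divided by, since the lengths implied by their counts ran from 1369 to 13479 bp, with a median of 3.84 times the longest coding sequence. Per kilobase of coding sequence, PSMB2 ranked first rather than 14th, and SEM1 ranked 8th rather than 38th.

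Activin-treated cells were first compared with control cells, whose culture time is not given. Of the 40 genes, 22 were lower with activin and 0 were higher (edgeR, adjusted p under 0.05, over 20988 genes). Across all genes tested, 8.41% were called lower and 9.58% higher. The median log2 fold change of the 40 was -0.63, against 0.02 for all genes, and 37 of the 40 values were below 0. At an unadjusted p under 0.05 the counts were 28 lower and 0 higher, and DESeq2 gave 24 and 0. DESeq2 called 6.89% of 33861 genes lower and 8.21% higher. The share of all genes at the unadjusted threshold is not given here for any comparison. Nothing is therefore read from the unadjusted counts. In 30 genes every activin library lay below every control library in CPM (counts scaled by library size with TMM factors), as did 21.3% of all genes tested. In such bulk libraries, fewer cells of a kind and less RNA per cell cannot be told apart.

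**Figure D1:**
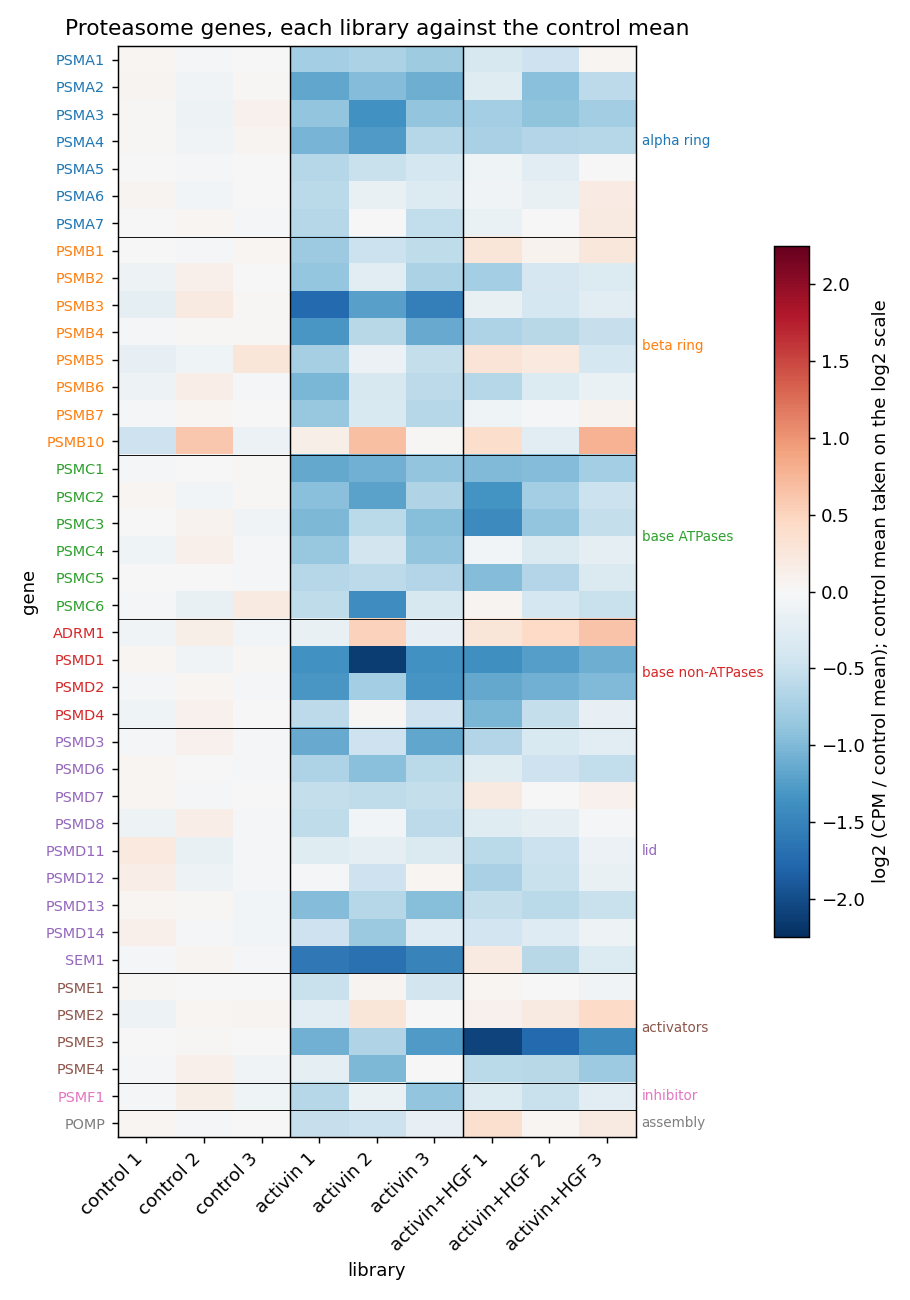
Each row is 1 of the 40 genes and each column 1 library. Colour gives log2 of the CPM over the mean of the 3 controls (mean of log2 values), blue for lower and red for higher, and the rows are grouped by role. Most rows are blue in the 3 activin libraries, with a median over the 40 genes of -0.75, -0.54 and -0.63, and paler in the activin + HGF libraries, at -0.33, -0.43 and -0.25.

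The largest falls were in a lid subunit, a scaffold of the base and a structural beta subunit. SEM1, the small lid subunit that tethers its neighbours, had 82.1, 87.8 and 83.3 CPM in the controls and 27.5, 26.3 and 30.0 CPM with activin. All 3 activin libraries were close together and well under the controls, at 33.1% of the control level (log2 fold change -1.60 ± 0.21 SE, edgeR adjusted p = 0.000814). PSMD1, a large scaffold of the base, had 208, 192 and 206 CPM in the controls and 78.6, 45.9 and 78.4 with activin (-1.58 ± 0.22, adjusted p = 0.000998). The lowest of these values was in the library activin 2, and the groups did not overlap. PSMB3 fell from 135, 179 and 158 to 46.3, 66.7 and 53.9 CPM (-1.50 ± 0.19, adjusted p = 0.00058).

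PSMD2, the other scaffold of the base, had 419, 439 and 416 CPM in the controls. It had 172, 250.3 and 169.9 CPM with activin, a log2 fold change of -1.11 ± 0.18 (edgeR adjusted p = 0.0024). Its groups lay apart although activin 2 stood above the other 2 libraries. PSMC1, an ATPase, had 148, 154 and 156 CPM in the controls and 68.2, 71.7 and 81.9 with activin (-1.04 ± 0.15, adjusted p = 0.00131). The alpha subunits PSMA2 and PSMA3 changed by -1.08 ± 0.19 and -1.04 ± 0.18, which makes 7 genes called with a log2 fold change of -1 or below, against 4.62% of all genes tested, and 0 with 1 or above, against 6.78%.

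**Figure D2:**
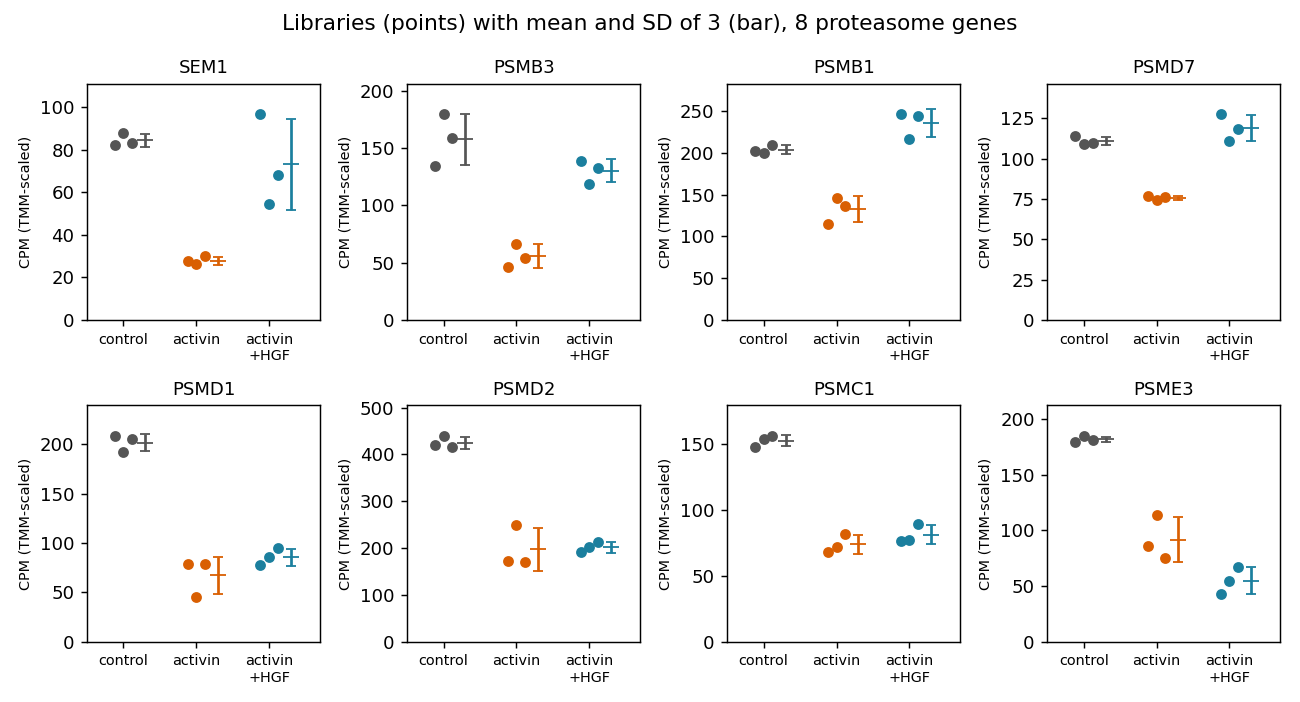
TMM-scaled CPM on the y axis for 8 genes in the 3 groups, with 1 point per library and a bar for the mean and SD of 3. SEM1, PSMB3, PSMB1 and PSMD7 (upper row) are low in activin cells and higher again in activin + HGF cells, whereas PSMD1, PSMD2, PSMC1 and PSME3 (lower row) stay below all control libraries.

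In the core particle, 5 of 7 alpha and 4 of 8 beta genes were lower with activin, as were 8.41% of all genes tested. Their median log2 fold changes were -0.76 and -0.61 for the alpha and beta rings. The 3 constitutive catalytic subunits moved by like amounts but did not all pass the test. PSMB7, the trypsin-like subunit, had 187, 196 and 189.8 CPM in the controls and 105, 151 and 123 with activin (-0.60 ± 0.17, edgeR adjusted p = 0.0316). PSMB6, the caspase-like subunit, had 98.0, 118 and 104 CPM against 51.9, 83.4 and 71.1 (-0.63 ± 0.21, adjusted p = 0.0596). Its libraries did not overlap, but the difference missed the threshold. For PSMB5, the chymotrypsin-like subunit, the values were 138, 147 and 191 against 94.0, 142 and 108 CPM (-0.47 ± 0.23, adjusted p = 0.205), and the groups overlapped. PSMA7, the alpha subunit with the highest FPKM, had 198, 204 and 195 CPM against 127, 198 and 136 (-0.37 ± 0.19, adjusted p = 0.221), with activin 2 inside the control range.

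PSMB10, which replaces PSMB7 in the immunoproteasome, was low in every group. Its CPM were 3.28, 6.92 and 4.13 in the controls, 4.98, 7.24 and 4.64 with activin, and 5.99, 3.85 and 7.78 after HGF, and no comparison passed the test (log2 fold change with activin 0.23 ± 0.36, edgeR adjusted p = 0.72). Per 100 units of PSMB7 by FPKM, PSMB10 stood at 1.9, 3.86 and 2.38 in the controls and 5.17, 5.24 and 4.14 with activin. These values did not overlap (two-sided exact permutation p = 0.1, the smallest 3 against 3 allows, and 0.3 after adjustment over 3 comparisons). After HGF the ratio was 3.67, 2.29 and 4.23, which overlapped both other groups (p = 0.2 against activin, p = 0.5 against control, exact permutation tests, 0.3 and 0.5 adjusted). A same-strand gene row that overlaps PSMB10 held 73.0% as many counts as PSMB10 itself and was lower with activin (log2 fold change -1.18, edgeR adjusted p = 0.0185). How reads were shared between them is not given in the sources used here. Of the immunosubunits left out, PSMB8 had a mean of 0.187 ± 0.0462 FPKM and PSMB9 1.23 ± 0.125 in the controls, and neither passed the test in any comparison.

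In the regulatory particle, 5 of the 6 ATPase genes were lower with activin (median -0.78), the exception being PSMC6 (-0.72 ± 0.27, edgeR adjusted p = 0.091). PSMC2, changed by -0.92 ± 0.23 (adjusted p = 0.0187), overlaps DNAJC2 on the other strand, a row with 35.2% of its counts that was lower too (-1.58, adjusted p = 0.000885). The other base genes divided. PSMD1 and PSMD2 fell, while the ubiquitin receptors PSMD4 (-0.32 ± 0.23, adjusted p = 0.393) and ADRM1 (0.09 ± 0.21, adjusted p = 0.822) did not pass. ADRM1 overlaps LAMA5 on the other strand, a row with 124% of its counts that was itself higher with activin (log2 fold change 1.40, adjusted p = 0.000565). Whether the authors' counting used strand is not given in the sources used here, so the reads of these genes cannot be told apart. In the lid 5 of 9 genes were lower (median -0.55), SEM1, PSMD3, PSMD13, PSMD6 and PSMD7. PSMD14, the deubiquitinating enzyme of the lid, had 165, 149 and 147 CPM in the controls and 111, 85.8 and 125 with activin, which did not overlap but missed the threshold (-0.51 ± 0.18, adjusted p = 0.0723).

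Of the 4 activators, PSME3, a nuclear activator that acts without ubiquitin, fell from 179, 184 and 181 to 85.8, 114 and 75.4 CPM (-0.99 ± 0.21, edgeR adjusted p = 0.00955). PSME1 and PSME2 form the interferon-inducible activator. PSME1 had 106, 103 and 103 CPM in the controls, 73.3, 109 and 78.0 with activin and 107, 104 and 98.0 after HGF. PSME2 had 65.8, 73.0 and 74.2, then 59.9, 86.1 and 71.2, then 75.6, 81.9 and 96.0 CPM. For both, activin 2 exceeded every control, and neither passed the test with activin (-0.26 ± 0.17 and 0.03 ± 0.18, adjusted p = 0.357 and 0.94) or in the other comparisons. PSME4, an activator of large size, had 99.4, 111 and 96.5 CPM against 88.8, 50.7 and 103 (-0.34 ± 0.24, adjusted p = 0.376), with activin 2 far below the other 2. PSMF1 had 112, 126 and 106 CPM against 73.7, 103 and 62.0 (-0.52 ± 0.20, adjusted p = 0.1). POMP, which assists the closing of the core barrel, had 82.6, 77.4 and 80.4 CPM against 55.7, 57.3 and 70.4 (-0.39 ± 0.16, adjusted p = 0.125).

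The count of 22 depends on the libraries. It was 12 without control 1, 12 without control 2, 13 without control 3, 13 without activin 1, 15 without activin 3 and 28 without activin 2, with 0 higher each time, and 11 of the 22 genes (PSMA2, PSMA3, PSMA4, PSMB3, PSMB4, PSMC1, PSMD1, PSMD2, PSMD13, SEM1 and PSME3) were called under each of 17 alternatives. Here and below, these 17 change the scaling, model, filter, counts or libraries, at an adjusted p under 0.05. They leave out the stricter thresholds. With a log2 change of 1 in size required, 7 genes were lower, and 11 at an adjusted p under 0.01. With both libraries that stand apart left out, 32 were lower. The share of all genes called lower moved too, from 3.73% without control 1 to 9.75% without activin 2 among these leave-outs, and was 15.6% without both.

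Cells given activin and then HGF were next compared with those given activin alone. Of the 40 genes, 6 were higher (SEM1, PSMB3, PSMB1, PSMD7, POMP and PSMB7) and 1, PSME3, was lower, while 7.41% of all genes tested were called higher and 5.45% lower. The median log2 fold change was 0.29, against -0.04 for all genes, and 33 of the 40 values were above 0. In 13 genes every activin + HGF library exceeded every activin library, as in 17.2% of all genes, and in 1 gene every one was lower, as in 15.6%. With a log2 fold change of at least 1 in size, 2 were higher (3.87% of all genes) and 0 lower (4.21%). Scaling bears on this direction. With library totals in place of TMM, the median of all genes moved to -0.38 and that of the 40 to -0.05, so that the 40 lay 0.34 above all genes, as against 0.33 with TMM. With limma on FPKM the 40 lay 0.24, 0.15 and 0.093 above all genes (pseudocount 0.1, pseudocount 1, and 0.1 with no filter). Over all genes the calls were 1555 higher and 1143 lower with TMM, and 692 higher and 2416 lower with totals. TMM factors were 0.783 to 0.926 in the activin + HGF libraries and 0.988 to 1.17 in the activin libraries.

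**Figure D3:**
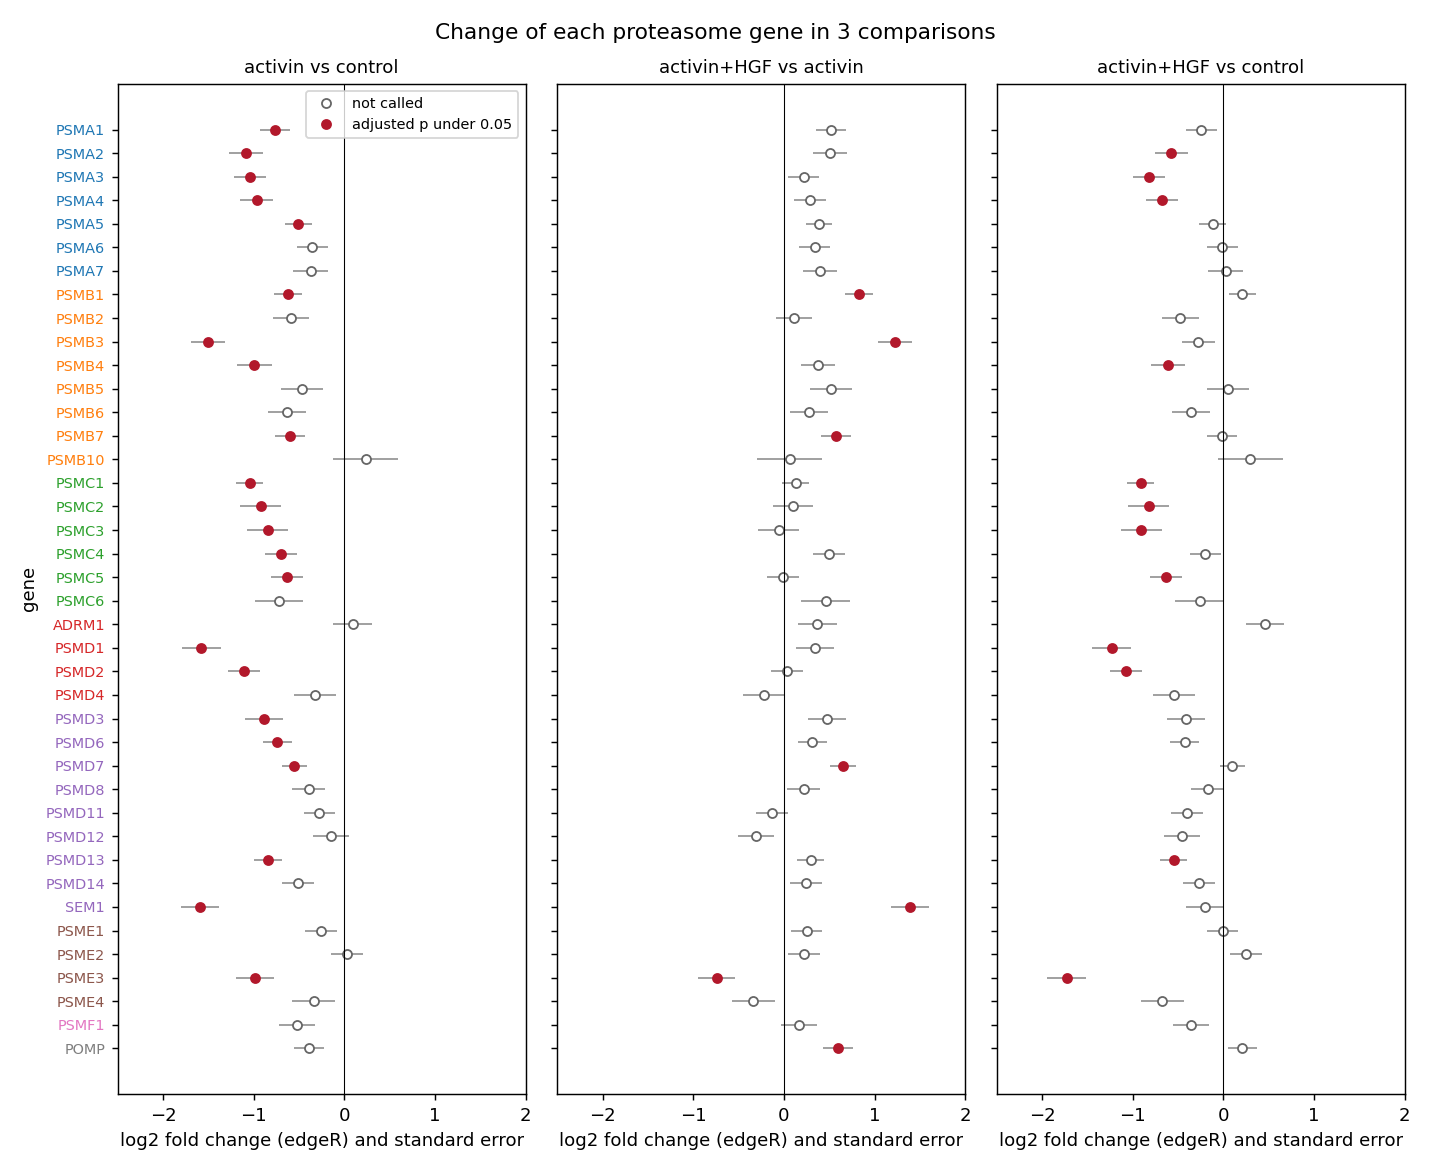
Log2 fold change of each of the 40 genes by edgeR with TMM (x axis) and its standard error, in the 3 comparisons. Filled points passed an adjusted p of 0.05. With activin 22 points are filled, all left of 0, with activin + HGF against activin 6 are filled right of 0 and 1 (PSME3) left of it, and against control 12 are filled, all left of 0.

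SEM1 rose from 27.5, 26.3 and 30.0 CPM with activin to 96.6, 54.8 and 68.0 after HGF (log2 fold change 1.39 ± 0.21, edgeR adjusted p = 0.00546). The library activin + HGF 1 was the highest of the 9, and the difference without it was 1.14 (adjusted p = 0.00847). PSMB3 rose to 139, 119 and 133 CPM, 1 of them within the control range and 2 below it (1.22 ± 0.19, adjusted p = 0.00557). These were the only ones of the 6 that were called under every one of 17 alternatives, library totals included, where SEM1 had 1.01 (adjusted p = 0.0102).

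PSMB1, a structural beta subunit, had 203, 199 and 209.8 CPM in the controls, 115, 146 and 137 with activin, and 246, 216 and 244 after HGF. The rise was 0.83 ± 0.15 (edgeR adjusted p = 0.00978), and the activin + HGF libraries lay above the controls too. PSMD7, the partner of PSMD14 in the lid, was steady within groups, at 76.6, 74.3 and 76.1 CPM with activin and 127, 111 and 118 after HGF (0.65 ± 0.14, adjusted p = 0.0163). With library totals its log2 fold change was 0.30 and was no longer called (adjusted p = 0.166). PSMB7 went to 179, 184 and 202 CPM (0.58 ± 0.17, adjusted p = 0.0456) and POMP to 103, 82.4 and 92.2 CPM (0.60 ± 0.16, adjusted p = 0.0376). Both of these calls held in 5 of 17 alternatives and were lost with library totals.

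PSME3 moved the other way. It had 85.8, 114 and 75.4 CPM with activin and 42.9, 54.2 and 67.4 after HGF (-0.74 ± 0.21, edgeR adjusted p = 0.0427). The groups did not overlap, but the call was lost in 8 of 17 alternatives, among them without activin + HGF 1 (-0.59, adjusted p = 0.106) and without activin 1 (-0.85, adjusted p = 0.0749). PSME3 overlaps BECN1 on the other strand, a row with 50.2% of its counts, for which the log2 fold change was 0.16 (adjusted p = 0.545).

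By role, 3 of 8 beta genes and 2 of 9 lid genes were called higher after HGF (edgeR). In either direction, 0 of 7 alpha genes, 0 of 6 ATPase genes and 0 of 4 other base genes were called. Of all genes tested, 7.41% were called higher and 5.45% lower, so 0 calls among so few genes do not set a part apart. Values were above 0 in 7 alpha, 8 beta, 7 lid, 4 ATPase and 3 other base genes. At an unadjusted p under 0.05, 3 alpha genes, 1 ATPase gene and 0 other base genes were higher. DESeq2 called 1, 0 and 0 higher, against 6.67% of 33861 genes. Median log2 fold changes relative to all genes were 0.49 for the beta ring, 0.43 for the alpha ring, 0.33 for the lid, 0.23 for the other base genes, 0.16 for the ATPases and -0.02 for the activators. With library totals these were 0.50, 0.42, 0.33, 0.23, 0.16 and -0.03. Whether the parts of the complex differ was not tested. PSMC4 was the ATPase with the largest value (0.50 ± 0.17, adjusted p = 0.0843), and PSMC3 and PSMC5 stayed at -0.06 ± 0.22 and -0.01 ± 0.18.

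**Figure D4:**
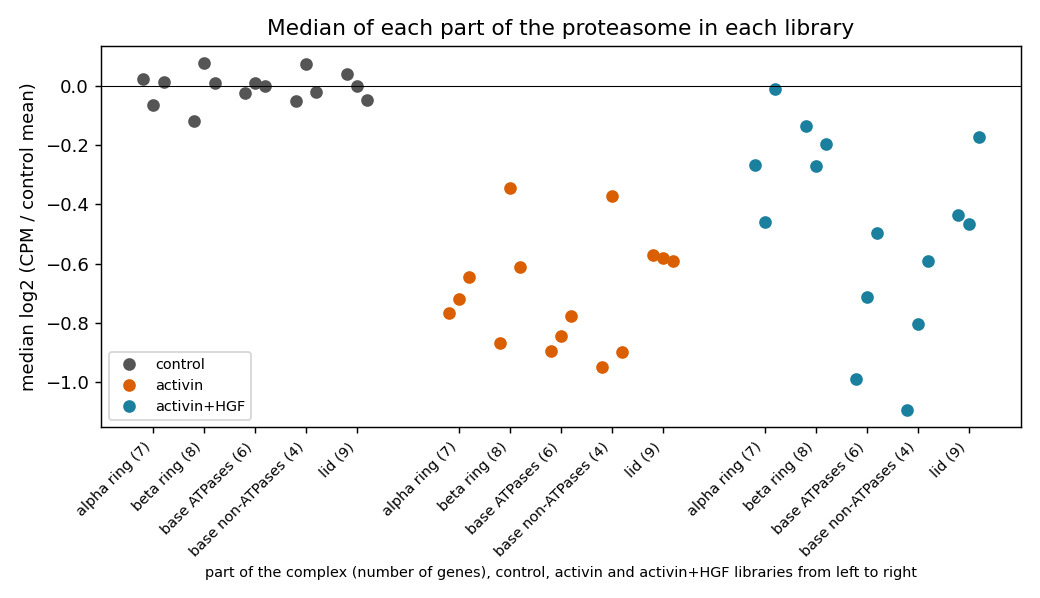
Each point is 1 library and gives the median, over the genes of 1 part of the complex, of log2 CPM relative to the control mean (y axis). In the activin + HGF libraries the beta ring lies at -0.13, -0.27 and -0.20 and the ATPases at -0.99, -0.71 and -0.50.

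The number of genes raised after HGF changed with single libraries. It was 2 without activin 1, 3 without activin 3, 14 without activin 2, and 20 with activin 2 and activin + HGF 1 both left out. The share of all genes called higher was 1.28%, 2.09%, 12% and 15.1% in the same order. The count was 3 with library totals, where 3.30% of all genes were called higher.

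The last comparison set activin + HGF cells against control cells, with the same controls as the first. Here 12 of the 40 genes were lower and 0 higher, while 15.0% of all genes tested were called lower and 16.4% higher (edgeR), or 31.4% in either direction. At an unadjusted p under 0.05 there were 18 lower and 0 higher, and DESeq2 called 13 and 0. Of 33861 genes, DESeq2 called 11.6% lower and 11.7% higher. The median log2 fold change was -0.36, against -0.03 for all genes. In 21 genes the activin + HGF libraries lay below all controls, against 28.1% of all genes, and in 3 genes (PSMB1, PSME2 and ADRM1) above them, against 25.7%. All 12 were among the 22 that were lower with activin, which is 54.5% of the 22, and none of the 6 raised after HGF was among the 12. The comparisons share control, activin or activin + HGF libraries, so these overlaps are not independent results.

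PSME3 had the largest difference, at 30.2% of the control level (-1.73 ± 0.21, edgeR adjusted p = 0.000314), with 42.9, 54.2 and 67.4 CPM against 179, 184 and 181. PSMD1 stood at 77.4, 85.7 and 94.6 CPM, 42.5% of the controls (-1.23 ± 0.21, adjusted p = 0.00199), and PSMD2 at 191, 202 and 214 CPM, 47.6% of the controls (-1.07 ± 0.18, adjusted p = 0.00162). These 3 genes were called with a log2 fold change of -1 or below, as were 10.2% of all genes. None of their libraries overlapped the controls.

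Of the 6 ATPase genes 4 were lower in activin + HGF cells than in control cells (PSMC1, PSMC2, PSMC3 and PSMC5, median of the 6 -0.73). PSMC1 had 76.2, 77.2 and 89.3 CPM (-0.91 ± 0.15, edgeR adjusted p = 0.00153). PSMC3 had 187, 199.6 and 179 CPM in the controls and 69.9, 102 and 130.2 after both factors (-0.90 ± 0.22, adjusted p = 0.0123), a wide spread with activin + HGF 1 the lowest. PSMC5 changed by -0.63 ± 0.18 (adjusted p = 0.021), and it overlaps FTSJ3 on the other strand, a row with 81.3% of its counts that was lower as well (-1.42, adjusted p = 0.00174). In the alpha ring PSMA2, PSMA3 and PSMA4 were lower (-0.57 to -0.82), in the beta ring PSMB4 (-0.61 ± 0.19, adjusted p = 0.0314) and in the lid PSMD13 (-0.55 ± 0.15, adjusted p = 0.02).

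None of the 6 genes raised after HGF was called against the controls with TMM. SEM1 differed from them by -0.21 ± 0.21 (edgeR adjusted p = 0.483), PSMB3 by -0.28 ± 0.18 (adjusted p = 0.283), PSMB7 by -0.02 ± 0.17 (adjusted p = 0.944) and PSMD7 by 0.10 ± 0.14 (adjusted p = 0.627). PSMB1 differed by 0.21 ± 0.15 (adjusted p = 0.328), with all 3 libraries above every control, and POMP by 0.21 ± 0.16 (adjusted p = 0.365). With library totals PSMB3 was called lower than control (-0.55, adjusted p = 0.021), as were 4 of 8 beta genes and 5 of 9 lid genes. With these totals 20.4% of all genes were called lower. A p that misses the threshold does not show that the levels were equal. PSMB5 had 191, 183 and 119.7 CPM (0.05 ± 0.23, adjusted p = 0.885) and PSMA7 179.9, 199.6 and 229 CPM (0.03 ± 0.19, adjusted p = 0.932). PSMB6 had 68.3, 86.2 and 95.6 CPM (-0.36 ± 0.21, adjusted p = 0.219) and PSMF1 92.6, 80.5 and 95.3 CPM (-0.36 ± 0.20, adjusted p = 0.203), and both lay below every control without passing. PSME4, at 67.3, 66.5 and 57.9 CPM against 99.4, 111 and 96.5, lay below the controls in every library and just missed the threshold (-0.68 ± 0.24, adjusted p = 0.0514).

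Summed over the 15 genes of the core particle, FPKM was 826 ± 21.6 in control, 527 ± 48.4 in activin and 599 ± 60.8 in activin + HGF cells (SD, n = 3). Over the 19 genes of the regulatory particle it was 665 ± 12.9, 454.5 ± 14.9 and 408 ± 75.3. Divided by the TMM factor of each library, the means were 790, 482 and 689 for the core and 635, 415 and 467 for the regulatory particle. By these means, activin + HGF cells lay above activin cells in the core sum on both scales. In the regulatory sum they lay below them by FPKM and above them after division. Libraries of the 2 groups overlapped in each case except the core sum after division. There the values were 677, 673 and 717 in activin + HGF and 407, 576 and 462 in activin libraries. The sums were not tested. The 40 genes together held 0.600% to 0.606% of all counts in the controls, 0.383% to 0.410% with activin and 0.330% to 0.430% after HGF, the lowest in activin + HGF 1.

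The count of 12 was 6 without control 3, 23 with library totals, and 18 lower and 1 higher with both libraries that stand apart left out, while 8.58%, 20.4% and 19.0% of all genes were called lower. The median of the 40 lay 0.32 below that of all genes both with TMM and with library totals. PSMA3, PSMC1, PSMC3, PSMD1, PSMD2 and PSME3 were called under each of 17 alternatives.

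Genes that act on the proteasome but lack its KEGG term were examined in 4 groups. The first list, of 7 measured genes, held NFE2L1 and others tied to control of proteasome genes. Several of these others act on proteins of the endoplasmic reticulum in general. In this list 3 genes rose (NFE2L1, SEL1L and SYVN1) and 1 fell (VCP) with activin (edgeR). Of all genes tested, 9.58% were called higher and 8.41% lower. NFE2L1 had 235, 250.1 and 256 CPM in the controls and 629, 762 and 456 with activin, a rise to 249% (log2 fold change 1.32 ± 0.19, adjusted p = 0.00125). After HGF it had 412, 413 and 397 CPM (-0.60 ± 0.19 against activin, adjusted p = 0.0606), still above the controls (0.72 ± 0.19, adjusted p = 0.0148, called in 12 of 17 alternatives). NFE2L1 protein starts in the endoplasmic reticulum and is turned over or released there, and that step was not measured here.

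SEL1L and SYVN1 form the ubiquitin ligase that degrades NFE2L1 and misfolded proteins of the endoplasmic reticulum. SEL1L had 61.8, 48.1 and 59.6 CPM in the controls and 208, 104 and 203 with activin (1.60 ± 0.25, edgeR adjusted p = 0.00211), and SYVN1 rose by 0.94 ± 0.21 (adjusted p = 0.0108). VCP, the ATPase that extracts such proteins, had 345, 361 and 327 CPM against 220.2, 283 and 202 (-0.55 ± 0.16, adjusted p = 0.043, called in 9 of 17 alternatives). NGLY1, which removes glycans from NFE2L1, was lower after HGF, at 8.56, 14.2 and 15.3 CPM against 28.6, 21.2 and 28.3 (-1.04 ± 0.24, adjusted p = 0.021). NFE2L2 and DDI2 passed the test in none of the 3 comparisons. In activin + HGF cells against controls 3 genes of this list were higher (NFE2L1, SEL1L and SYVN1) and 1 was lower (NGLY1), but 1 was higher and 2 were lower with library totals. Across all genes tested 16.4% were called higher and 15.0% lower, and with library totals 11.7% and 20.4%.

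**Figure D5:**
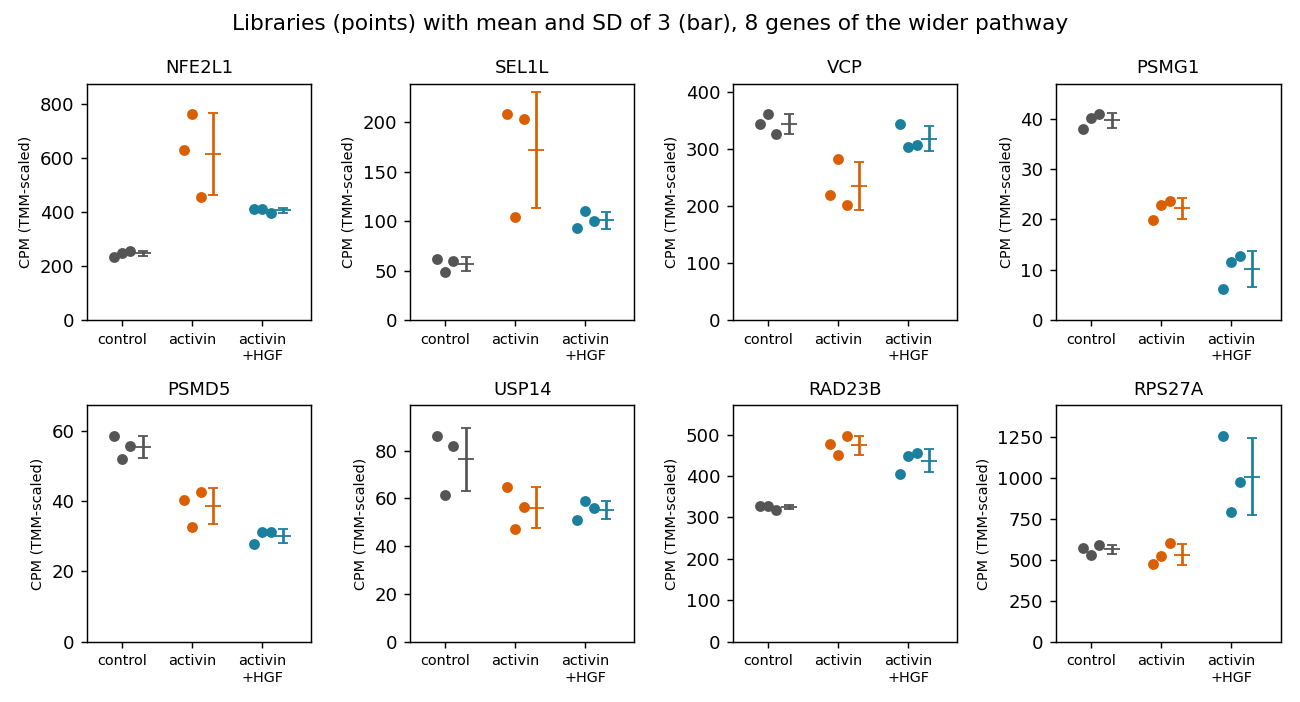
TMM-scaled CPM (y axis) of 8 genes outside the KEGG term in the 3 groups, with 1 point per library and a bar for the mean and SD of 3. NFE2L1 and SEL1L are higher in all activin libraries than in all controls, PSMG1 falls at each step, and RPS27A is higher in all activin + HGF libraries than in the other 6.

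Of 8 assembly chaperones, 1 was lower with activin and none higher, and after HGF 1 was lower and 1 higher (edgeR), where 8.41% of all genes were lower with activin, and 5.45% lower and 7.41% higher after HGF. Nothing particular to the list is read from these counts. PSMG1, which helps to build the alpha ring, was lower at both steps. It had 38.0, 40.1 and 40.8 CPM in the controls, 19.9, 22.9 and 23.7 with activin and 6.12, 11.5 and 12.7 after HGF. The changes were -0.84 ± 0.25 (adjusted p = 0.0425), -1.13 ± 0.25 (adjusted p = 0.0195) and, over both, -1.97 ± 0.26 (adjusted p = 0.000446). The first held in 7 of 17 alternatives, the second in 15 and the last in 17. PSMG3, of another chaperone pair, rose after HGF (0.70 ± 0.19, adjusted p = 0.0393, called in 6 of 17 alternatives), and PSMD5, a chaperone of the base, was lower in activin + HGF cells than in controls (-0.88 ± 0.17, adjusted p = 0.00299).

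Of the ubiquitin factors bound to the proteasome, the shuttle protein RAD23B rose with activin (0.55 ± 0.14, edgeR adjusted p = 0.0194). It had 328, 326 and 319 CPM in the controls and 477, 450.0 and 496 with activin. After HGF, ZFAND5 rose (0.81 ± 0.23, adjusted p = 0.0439, held in 4 of 17 alternatives) and ECPAS, an adaptor of the proteasome, fell (-0.80 ± 0.21, adjusted p = 0.0362, held in 10). ECPAS was also lower in activin + HGF cells than in controls (-1.09 ± 0.21, adjusted p = 0.00379). Of 6 ubiquitin and E1 genes, RPS27A, which encodes ubiquitin fused to a ribosomal protein, was the one called, where 7.41% of all genes were called higher after HGF. It had 571, 531 and 589 CPM in the controls, 474, 524 and 600.5 with activin, and 1255, 792 and 978 after HGF (0.92 ± 0.19 against activin, adjusted p = 0.0143).

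The 40 genes varied less between libraries of a group than genes in general. The median SD of log2 CPM was 0.0714 in control, 0.274 in activin and 0.168 in activin + HGF cells, against 0.148, 0.344 and 0.287 for all genes with a mean of at least 1 CPM. They are also more abundant than most genes, and this difference was not tested. In the activin group, the library activin 2 was the highest of the 3 for 26 genes and the lowest for 11, and in the activin + HGF group the first library was the lowest for 21 and the third the highest for 27.

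The genes lie on 14 chromosomes, with 7 each on chromosomes 14 and 17. Of those on chromosome 17, 4 were lower with activin (PSMB3, PSMC5, PSMD3 and PSME3), and of those on chromosome 14, 2 (PSMA3 and PSMC1). All 3 on chromosome 11 and all 3 on chromosome 7 were lower, and none of the 3 on chromosome 20. Over all 40 genes 55.0% were lower, and a dependence on chromosome was not tested. The table gives coordinates without a build, and those of 8 of the 40 genes equal the GENCODE 29 gene bounds on GRCh38. By these coordinates 21 of the 40 genes overlap another row, 16 of them on the other strand, and for 10 the overlapping rows held over 10% of the gene's own counts (ADRM1, PSMC5, PSMB10, PSME2, PSME3, PSMC2, PSMA3, PSMC1, PSMF1 and PSME1). Pseudogenes of the 40 (19 rows) held 0.119% to 0.213% of their counts, at most 5.76% of a parent, for PSMC1.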

How the data were processed

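Total RNA of HCT116 cells was depleted of ribosomal RNA and sequenced in 9 libraries, 3 per group. Per the labels the authors used cutadapt 1.9, HISAT2 2.0.4 and StringTie 1.3.4d, and deposited 1 table with raw read counts and FPKM per gene. The genome build, the counter and its use of strand are not given in the sources used here. Of the counts from 1 to 40, 35.0% were multiples of 4, so counts divided by 4 were an alternative.

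From the counts, genes were filtered (filterByExpr), scaled by TMM and fitted over all 9 libraries by group with the quasi-likelihood test of edgeR 4.0.16 (R 4.3.3). Calls required a p below 0.05 after Benjamini-Hochberg adjustment over 20988 genes, at any fold change. Standard errors are the absolute log2 fold change over the square root of F. CPM are these counts scaled by TMM library sizes. FPKM were used as deposited by the authors, and were tested by limma 3.58.1 as log2(FPKM + 0.1). DESeq2 1.42.0 was another alternative. The edgeR step was tested on simulated data of 19994 genes for activin against control. In these, 100 abundant genes were changed by 1.5 (log2) and 100 by 0.75. Of them 81% and 5% were called, and 7.53% of calls were unchanged genes. With activin 3776 genes were called in the data. Fewer changed genes make the adjusted threshold stricter, so these rates do not carry over to the data. Replicate numbers did not pair libraries (correlation of same-numbered deviations -0.054 to 0.073, 9 pairs), so no block was used. No 2 libraries agreed within sampling noise (chi-square at least 60.6 times its degrees of freedom).

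Members and gene lists were chosen with earlier results of these data known. Values per library are given by rule for the catalytic subunits, the activators, PSMF1, POMP, the 3 called genes with the largest change in each direction of each comparison and the genes with the highest and lowest FPKM. Those of PSMC1, PSMC3, PSMD7, PSMD14 and of genes outside the KEGG term beyond the largest called changes, were added after values were seen. Motifs were searched in RefSeq promoter sequences (GRCh38.p14). No protein sequences were used here. Some items of the gene lists and promoter sequences are not reported here.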

Additional observations from a re-analysis of the deposited data

How the results depend on the processing

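The limits come first. Each group has 3 libraries, and the scaling decides the sign of small changes at the HGF step. Of 1122 values of called genes under the alternatives, 877 were still called, 245 were not and 0 turned direction. Of 544 values of named genes not called, 41 became called and 65 had the opposite sign, none of these called. The cause of these shifts was not tested, except that smaller counts at stricter thresholds follow from the threshold.

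With activin, 7 genes were lower when a log2 change of 1 in size was required and 11 at an adjusted p under 0.01. Of all genes tested, 4.62% passed the first. The share at an adjusted p under 0.01 is not given here. After HGF, 3 were higher with library totals, with limma on FPKM in each of 3 settings and at an adjusted p under 0.01, 2 with the 2 groups fitted alone or a log2 change of 1 required, and 20 with both libraries that stand apart left out (chosen after seeing the data). Of all genes, 3.30% were called higher with library totals and 5.31%, 5.59% and 1.69% with limma (pseudocount 0.1, 1, and no filter). The share was 1.94% with 2 groups alone, 3.87% with the log2 change required and 15.1% with both libraries left out. The 1 lower gene became 0 without the filter, with the block, with 2 groups alone and at either stricter threshold. Against control, activin + HGF gave 23 lower with library totals, 27, 27 and 20 with limma (pseudocount 0.1, 1, and no filter), 3 with a log2 change of 1 required and 5 at an adjusted p under 0.01, and 1 higher with 2 groups alone or both libraries left out. The share of all genes called lower moved too, from 15.0% with edgeR and TMM to 20.4% with library totals. It was 28.1%, 28.8% and 11.3% with limma and 10.2% with the log2 change required. With 2 groups alone or both libraries left out, 19.6% of all genes were called higher. Leaving out single libraries gave 12 to 28 lower with activin, 2 to 14 higher and 0 to 1 lower after HGF, and 6 to 12 lower against control, with medians from -0.72 to -0.52, 0.18 to 0.40 and -0.42 to -0.32. The differences in PSMB10 per 100 PSMB7 ranged from 1.73 to 2.71, -1.87 to -0.902 and 0.265 to 1.26.

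A block on the replicate number (edgeR) gave 23 lower with activin, 4 higher and 0 lower after HGF, and 12 lower against control. In the same order, the shares of all genes were 7.65%, 5.80%, 3.94% and 13.7%. The replicate numbers are shared by name alone.

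Signs turned as follows, with log2 values for library totals and then limma with pseudocount 0.1, 1 and no filter. At the HGF step the median of the 40 genes became -0.045, -0.071, -0.067 and -0.071, PSME1 -0.079, -0.11, -0.10 and -0.11, PSME2 -0.10, -0.15, -0.14 and -0.15, PSMF1 -0.16, -0.18, -0.16 and -0.18, PSMB6 -0.040, -0.087, -0.085 and -0.087, PSMD2 -0.29, -0.32, -0.31 and -0.32, PSMB10 -0.27, -0.33, -0.24 and -0.33, and PSMD1 -0.019 with totals alone. Against control PSMB1 became -0.065, -0.094, -0.093 and -0.094, PSMB5 -0.22, -0.26, -0.26 and -0.26, PSME2 -0.010, -0.054, -0.051 and -0.054, PSMA7 -0.23, -0.28, -0.28 and -0.28, and POMP -0.071, -0.098, -0.096 and -0.098. With 2 groups alone PSMD2 was -0.0089 at the HGF step. Leaving out single libraries spanned 0 at the HGF step for PSMF1 (-0.060 to 0.40), PSMD2 (-0.14 to 0.24) and PSMB10 (-0.19 to 0.30), against control for PSME1 (-0.055 to 0.021), PSMB5 (-0.079 to 0.23), PSMA7 (-0.073 to 0.11) and PSMB7 (-0.078 to 0.019), and with activin for PSME2 (-0.12 to 0.18). With both libraries left out they turned for PSME2 with activin (-0.11) and against control for PSMB5 (-0.058) and PSMB7 (0.026).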
